A study of Mus musculus with 8 samples.

Results

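The Nlrp4, Nlrp9 and Nlrp14 genes described here are members of the mouse NLRP family with mRNA in oocytes, and they are not the whole of that group, since Nlrp5, Nlrp2 and Nlrp4g are also present there. They were taken by symbol from tables of 48440 genes, which gave 9 genes: Nlrp14, Nlrp4a, Nlrp4b, Nlrp4c, Nlrp4e, Nlrp4f, Nlrp9a, Nlrp9b and Nlrp9c. They were chosen by symbol and selected on their measured TPM, high in the oocyte libraries and low in the pluripotent ones, so that contrast is described here without a test. RNA sequencing libraries were made from 4 groups of 2 libraries each. MII oocytes, arrested at metaphase of the second meiotic division, carry the same growth protocol in the labels as GV oocytes, and no maturation step is given for them. GV oocytes, arrested before the meiotic divisions with an intact nucleus called the germinal vesicle, came from mice primed with 5 units of PMSG, a gonadotropin that makes follicles grow, 48 h ahead of a further injection of unstated content, and were held in 2 µM milrinone, an inhibitor of phosphodiesterase that keeps oocytes arrested. EpiC, cells grown in vitro toward the epiblast of the embryo, were plated for 24 h, deprived of LIF and of both ESC inhibitors, and collected about 56 h later. ESC, the embryonic stem cells from which EpiC were made, were grown in 15% serum with LIF, the MEK inhibitor PD0325901 and the GSK3 inhibitor CHIR99021. The labels give 15% serum for EpiC as well. No genetic change, strain, age or cell line name is given for any group in the sources used here, nor whether 2 libraries of a group came from separate mice or cultures. Each p-value below therefore measures the spread between these libraries, which may be technical.

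NLRP proteins share an ATP-binding NACHT domain and a stretch of leucine-rich repeats, usually behind a pyrin domain. NLRP3 and its like build inflammasomes, platforms that activate caspase-1 in immune cells, whereas a second branch of the family is expressed mainly in the germ line. In mouse oocytes Nlrp5 and Nlrp2 proteins belong to the subcortical maternal complex, a protein assembly under the egg surface that early embryos need. Nlrp4f has been reported to bind that complex, and Nlrp14 has been reported to stabilise the chromatin protein UHRF1 and to act on the mitochondrial exchanger encoded by Slc8b1. Nlrp9b outside the ovary senses viral RNA in mouse intestinal epithelium with the helicase Dhx9, and human NLRP4 restrains interferon signalling through DTX4 and TBK1.

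Total estimated counts ran from 47463546 to 196788239 per library, and replicate 2 was the deeper library in each group. Of 10 oocyte markers, 10 reached 1 TPM in each MII library and 10 in each GV library, against 3 and 1 in the EpiC libraries and 3 and 2 in the ESC libraries. TPM is a transcript level corrected for transcript length and for the total of the library. Fgf5, a marker of the epiblast state, measured 55.3 and 18.9 TPM in EpiC and 0.1 and 0.0526 TPM in ESC. Markers of cumulus and granulosa cells, the somatic cells around the oocyte, summed to 50.7 and 48.1 TPM over 9 genes in the MII libraries and to 30.7 and 164 TPM in the GV libraries. Of the 9, 4 were higher in both MII libraries than in both GV libraries (Cyp19a1, Has2, Ptgs2 and Tnfaip6) and 4 were lower (Fshr, Amh, Inhbb and Inha). Cyp19a1 measured 47.4 and 44.5 TPM in MII and 23.4 and 18.3 TPM in GV, which is most of the MII sum. Inha measured 0.215 and 1.77 TPM in MII and 4.66 and 105 TPM in GV. Foxl2 measured 0 and 0.0239 TPM in MII and 0 and 0.244 TPM in GV. The part of these cells in the differences below was not tested.

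On chromosome 7 lie 8 of the genes and Nlrp4f lies on chromosome 13 (GENCODE M21 annotation, GRCm38). Nlrp9c (26322473 to 26403700), Nlrp4a (26435113 to 26476142) and Nlrp9a (26535023 to 26575615) are neighbours on chromosome 7, with 31.4 kb between Nlrp9c and Nlrp4a and 58.9 kb between Nlrp4a and Nlrp9a. Nlrp9c is on the minus strand, so it and Nlrp4a are read away from each other. Nlrp4c (6045161 to 6105150), Nlrp4b (10687789 to 10730168), Nlrp9b (19991465 to 20073306), Nlrp4e (23301192 to 23362277) and Nlrp14 (107166990 to 107198102) stand apart on the same chromosome, on the plus strand. Nlrp4f spans 65177111 to 65205977 on the minus strand of chromosome 13. Within 100 kb on each side of these genes stood 1 to 14 genes that are not members, of which 0 to 5 reached 1 TPM in GV oocytes. Nlrp5 was one of the 2 such genes near Nlrp4e.

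The coding sequences fall into 3 branches. Nlrp4c and Nlrp4e were the closest pair, with 93.9% identical bases over 2934 aligned bases, and Nlrp9a and Nlrp9c came next with 87.7%. Nlrp4a matched Nlrp4c at 86.3% and Nlrp4e at 85.9%. Nlrp9b matched Nlrp9a at 84.2% and Nlrp9c at 82.8%, and Nlrp4f matched Nlrp4a, Nlrp4c and Nlrp4e at 83.2% to 83.6%. Nlrp4b was the most distant Nlrp4 gene, at 77.8% to 79.0% identity with the other Nlrp4 genes. Nlrp14 matched every other member at 59.8% to 63.1%. Likeness decides how surely short reads can be given to one gene. None of 3505 stretches of 31 bases in Nlrp14 transcripts recurred in another gene, and 0.396% did for Nlrp4b, against 6.30% for Nlrp9c, 7.99% for Nlrp4a, 11.7% for Nlrp9b, 12.4% for Nlrp9a, 18.6% for Nlrp4f and 22.1% for Nlrp4c. Nlrp4e was the least certain, with 52.8% shared, of which the pseudogene model Gm16443 held most (42.0% of the Nlrp4e stretches). Gm16443 was itself listed at 0 and 0.142 TPM in MII and 0.847 and 0.503 TPM in GV.

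The promoters show which members share the sequence at their start. They are printed for Nlrp4a, Nlrp4b and Nlrp4c, not for Nlrp4e or Nlrp4f, and for the 3 Nlrp9 genes. Their likeness can thus be read beside the MII and GV values. RefSeq windows (GRCm38.p6) run from 250 bases before to 50 bases after the annotated start, and 10 windows of 8 members were found, of which the downstream one is shown for Nlrp4a and the upstream one for Nlrp4b. Capitals mark the E-box CANNTG, the site class bound by FIGLA with its E12 partner and by other basic helix-loop-helix factors.
Nlrp4a, chr7:26435364-26435663, plus strand: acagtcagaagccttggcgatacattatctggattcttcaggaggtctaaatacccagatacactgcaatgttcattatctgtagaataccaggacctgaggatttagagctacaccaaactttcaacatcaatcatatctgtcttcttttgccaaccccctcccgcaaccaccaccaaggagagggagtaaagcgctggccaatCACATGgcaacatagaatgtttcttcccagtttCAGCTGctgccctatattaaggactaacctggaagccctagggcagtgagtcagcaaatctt
Nlrp4b, chr7:10687543-10687842, plus strand: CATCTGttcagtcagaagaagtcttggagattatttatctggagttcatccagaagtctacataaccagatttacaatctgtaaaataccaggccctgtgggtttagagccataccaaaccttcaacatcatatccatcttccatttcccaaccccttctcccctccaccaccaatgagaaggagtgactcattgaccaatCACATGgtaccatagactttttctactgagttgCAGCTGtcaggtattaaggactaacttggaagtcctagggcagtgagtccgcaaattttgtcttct
Nlrp4c, chr7:6044911-6045210, plus strand: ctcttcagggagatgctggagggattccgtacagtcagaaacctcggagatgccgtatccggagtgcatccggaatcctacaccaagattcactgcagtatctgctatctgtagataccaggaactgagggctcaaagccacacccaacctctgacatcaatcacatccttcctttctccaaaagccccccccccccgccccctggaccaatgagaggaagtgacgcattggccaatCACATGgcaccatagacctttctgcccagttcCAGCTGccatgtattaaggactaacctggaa
Nlrp9a, chr7:26534773-26535072, plus strand: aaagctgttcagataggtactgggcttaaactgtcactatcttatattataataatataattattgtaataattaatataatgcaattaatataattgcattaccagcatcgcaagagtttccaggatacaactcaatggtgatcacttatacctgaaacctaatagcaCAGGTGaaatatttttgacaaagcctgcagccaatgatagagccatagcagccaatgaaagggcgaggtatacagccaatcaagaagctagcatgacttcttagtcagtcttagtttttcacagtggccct
Nlrp9c, chr7:26403651-26403950, minus strand: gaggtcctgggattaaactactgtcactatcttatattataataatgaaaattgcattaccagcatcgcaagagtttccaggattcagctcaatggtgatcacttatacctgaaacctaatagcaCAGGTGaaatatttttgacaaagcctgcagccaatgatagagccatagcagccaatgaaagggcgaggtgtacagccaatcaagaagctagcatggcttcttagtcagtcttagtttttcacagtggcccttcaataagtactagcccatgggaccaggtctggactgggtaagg
Nlrp9b, chr7:20007773-20008072, plus strand: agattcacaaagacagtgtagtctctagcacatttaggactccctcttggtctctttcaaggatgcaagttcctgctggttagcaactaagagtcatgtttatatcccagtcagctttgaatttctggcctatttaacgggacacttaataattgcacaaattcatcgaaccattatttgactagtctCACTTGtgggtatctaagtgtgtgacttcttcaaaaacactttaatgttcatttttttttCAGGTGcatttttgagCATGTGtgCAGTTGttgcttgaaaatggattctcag
The Nlrp4a, Nlrp4b and Nlrp4c windows matched each other at 80.8% to 81.8% of 256 to 280 aligned bases, and each holds a CACATG and a CAGCTG. Their distances to the annotated start were alike in Nlrp4a (positions −45 and −12) and Nlrp4b (−49 and −16), and in Nlrp4c the same boxes lay at −13 and 19. This likeness in distance depends on the windows shown. In the other Nlrp4b window the boxes lay at −77 and −44. The other Nlrp4a window had no CACATG and a CAGCTG at −80. It aligned to the Nlrp4b windows over 18 bases and to that of Nlrp4c over 24. The Nlrp9a and Nlrp9c windows matched at 97.3% of 222 bases. The Nlrp9b window aligned to them over no more than 14 bases, and its annotated start lies within the gene as GENCODE draws it. The Nlrp4e window, not printed, aligned to windows of other members over at most 37 bases, and that of Nlrp4f over at most 80. The narrower E-box CAGGTG or CACCTG stood in all 3 Nlrp9 windows, at −81 in Nlrp9a, −125 in Nlrp9c and −2 in Nlrp9b, and in no Nlrp4 window. It occurs in 20.2% of 32851 promoter windows of the same length, and CANNTG, with which it overlaps, occurs in 72.3% and in windows of 8 of 8 members. Homeobox motifs were rare: TAATTG stood in windows of 2 members (8.0% of all windows), TAATTA in 1 (5.29%) and TAATCC in 1 (7.06%). A match is a run of letters and does not show binding.

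The last 30 bases of the transcripts hold the polyadenylation signal where one lies there, which is of interest in oocytes because tail length controls the use of stored mRNA. They are printed for 1 coding transcript of each Nlrp9 gene and of Nlrp14, with AATAAA in capitals. These 4 were chosen after their values were seen.
Nlrp9b-001: catttAATAAAcactaagcgtgtttgaaaa
Nlrp9a-001: cattcAATAAAcactaagcatgtgtgaaaa
Nlrp9c-001: cattaAATAAAcactaagcatgtttgaaaa
Nlrp14-001: gtggaggttgagaaagtaaagcaaagcaca
The 3 Nlrp9 ends are nearly the same. Nlrp9c-001 held 28.0% and 28.2% of Nlrp9c TPM in MII and 53.5% and 49.7% in GV, and the end of the noncoding Nlrp9c-005, the larger form in MII, is not shown. The annotated end of Nlrp14-001 has no AATAAA in these bases. The same holds for Nlrp4a-002, Nlrp4b-002 and Nlrp4f-201, not printed, while Nlrp4c-001 and Nlrp4e-001 have it, so the lack of AATAAA is not particular to Nlrp14. No other form of the signal was searched for, so an end without AATAAA may still hold a signal. AATAAA stood within the last 30 bases of 36.1% of 46595 coding transcripts.

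Nlrp14 was by far the most abundant of the 9 mRNAs in GV oocytes. It measured 133 and 159.8 TPM in the MII libraries, against 4156 and 1376 TPM in the GV libraries, where it made up 52.8% and 51.7% of the summed TPM of the 9 genes. In MII its share of that sum was 4.53% and 9.0%. The GV libraries disagreed on the level by 3.02 times.

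Nlrp4f, reported in mouse as a partner of the subcortical maternal complex, was second in both GV libraries, with 706 and 344 TPM in MII and 827 and 286 TPM in GV. Nlrp4a measured 799.6 and 432 TPM in MII and 703 and 213 TPM in GV, and it was the first of the 9 genes in both MII libraries. The ranges of both genes in MII and GV overlapped. Nlrp4b measured 427 and 266 TPM in MII and 436 and 144 TPM in GV, and its MII values lay inside the GV range. Nlrp4c, close in sequence to Nlrp4e, was the lowest member, with 10.1 and 9.72 TPM in MII and 18.7 and 6.93 TPM in GV. Nlrp4e, needed in mouse for early cleavage, measured 43.8 and 35.3 TPM in MII against 138 and 61.4 TPM in GV, and these groups did not overlap.

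Nlrp9b, the intestinal sensor of viral RNA in mouse, measured 67.5 and 36.3 TPM in MII and 677 and 221 TPM in GV, without overlap. Nlrp9a measured 215 and 116 TPM in MII and 432 and 137 TPM in GV, and Nlrp9c 525 and 376 TPM in MII and 485 and 216 TPM in GV, both with overlap. Nlrp9a and Nlrp9c, whose promoters are nearly identical, differed in level by 2.44 and 3.23 times in MII and by 1.12 and 1.58 times in GV (Nlrp9c over Nlrp9a). Counting coding transcripts alone, the order turned, with Nlrp9c below Nlrp9a in each oocyte library. Coding Nlrp9c measured 151 and 107.8 TPM in MII and 263 and 108.5 TPM in GV. Coding Nlrp9a measured 209 and 111.5 TPM in MII and 424 and 135 TPM in GV. Neighbours in the order of GV levels between Nlrp4f and Nlrp9a differed by less than the spread between the GV libraries, while Nlrp14 at the top and Nlrp4e and Nlrp4c at the bottom stood apart from the rest in each GV library.

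**Figure D1:**
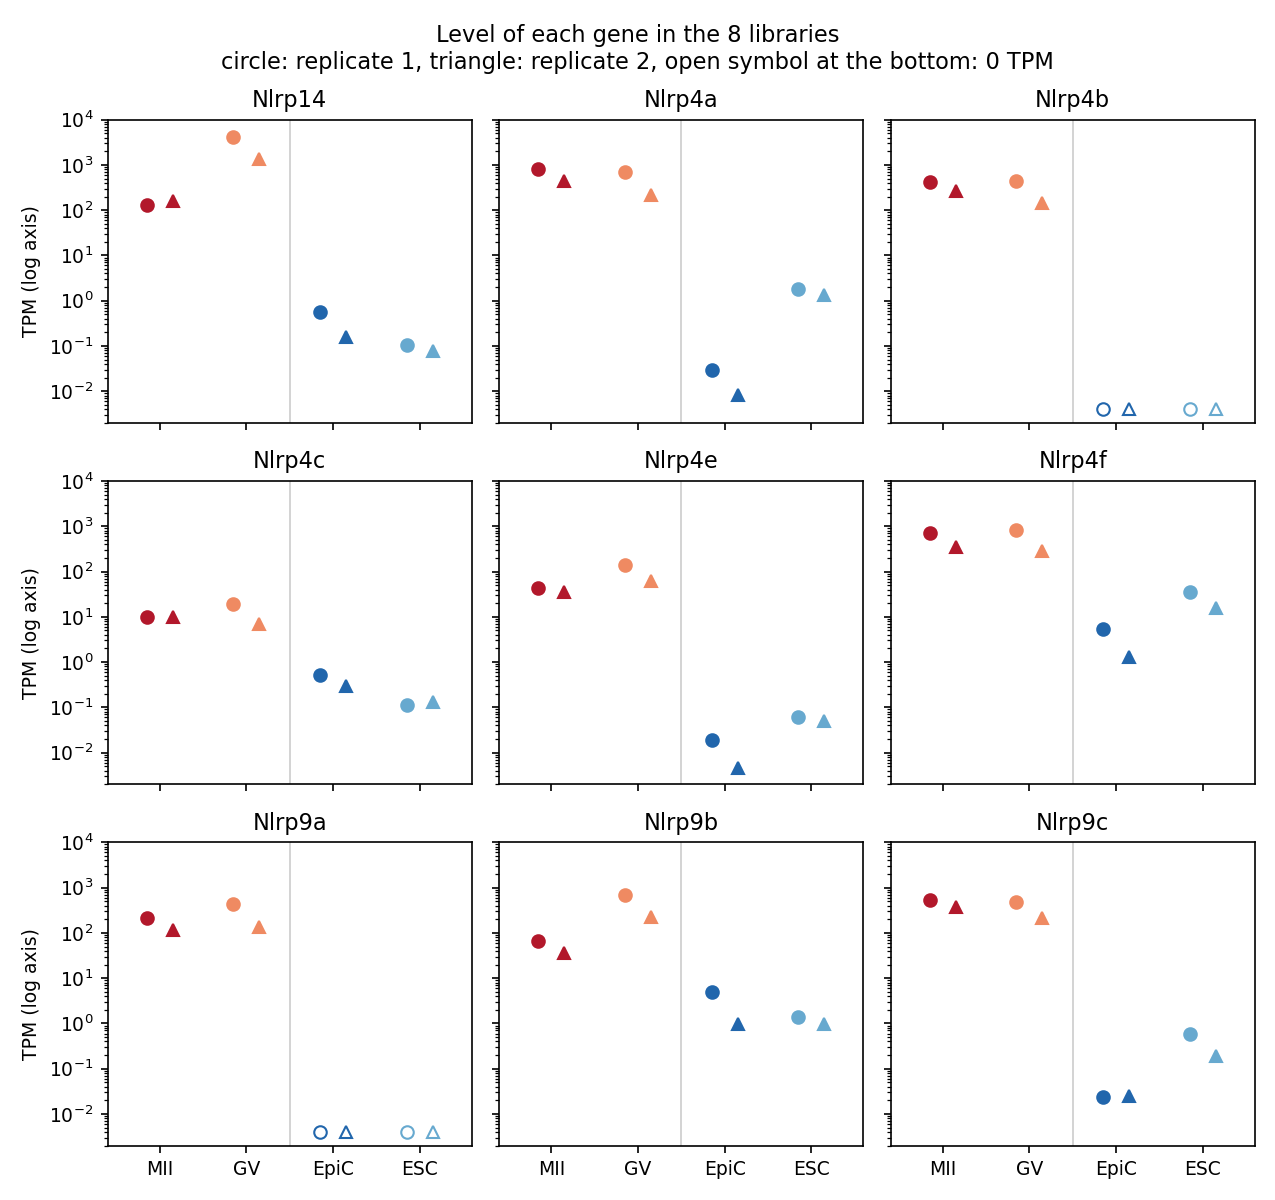
TPM of each gene on a log axis in the MII, GV, EpiC and ESC libraries, with circles for replicate 1 and triangles for replicate 2 of each group. In oocytes Nlrp14 ranges from 133 to 4156 TPM and Nlrp4c from 6.93 to 18.7 TPM, and open symbols mark Nlrp4b and Nlrp9a at 0 TPM in all 4 pluripotent libraries.

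The spread between replicates was wide, and it ran in one direction for 8 of 9 genes in MII and for 9 of 9 in GV. In MII oocytes the ratio of replicate 1 to replicate 2 ran from 0.83 for Nlrp14 to 2.05 for Nlrp4f, with a median of 1.61 over the members against 1.02 over 4741 coding genes at a mean of 10 TPM or more. In GV oocytes each member was 2.25 to 3.31 times higher in replicate 1 than in replicate 2, while the median of 7112 coding genes was 1.05 and the 95th percentile was 2.49. Across those coding genes, which are not independent replicates, the ratio fell with the GC content of the transcripts, with a Spearman correlation of −0.59 in MII and −0.74 in GV. The 9 genes have 38.4% to 43.6% GC. Of 10 equal classes of genes by GC content, the lowest, up to 42.7% GC, had a median GV ratio of 1.79, and the highest had 0.662. Members lay above the median of the lowest class in 5 of 9 cases in MII and in 9 of 9 in GV. In MII that class ended at 41.8% GC. Nlrp4c and Nlrp4e lay above its GC bound in both groups and Nlrp4a and Nlrp14 in MII, so not all members have the GC content of that class. The part of GC content in the values of the members was not tested beyond the corrected fit given with the comparison.

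**Figure D2:**
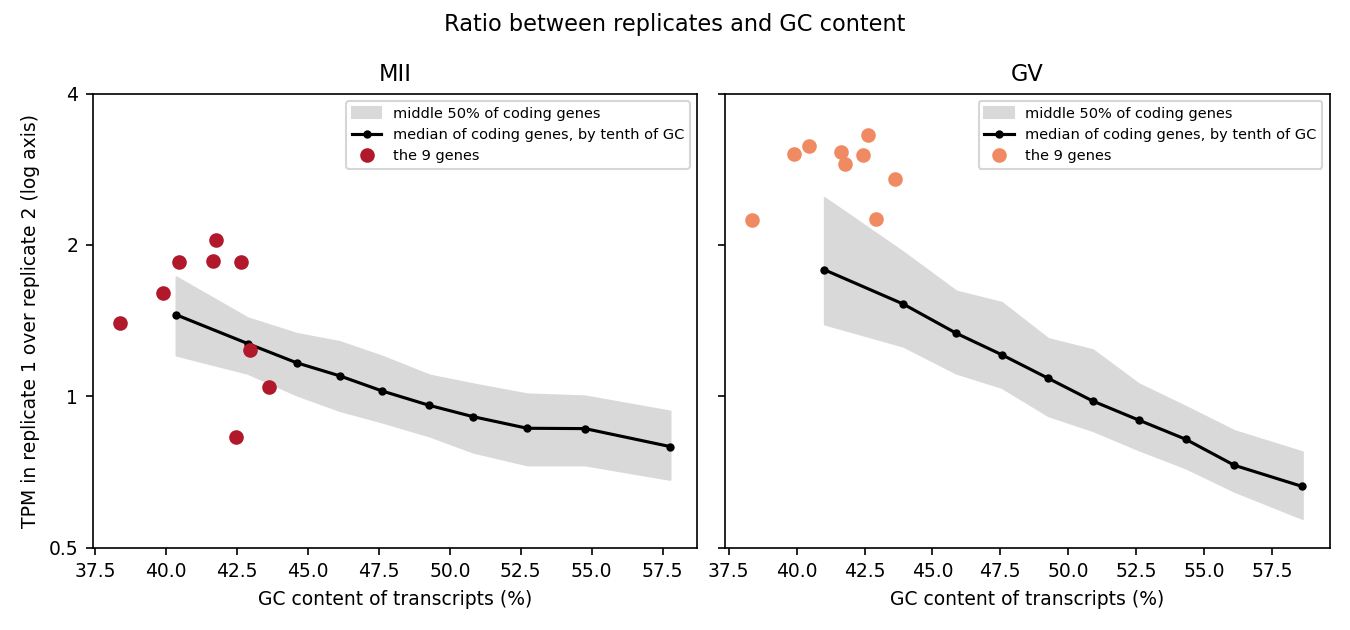
TPM in replicate 1 over replicate 2 (log axis) against the GC content of transcripts, for MII on the left and GV on the right, with the median and middle 50% of coding genes in 10 classes of GC content and a point for each of the 9 genes. The MII points lie between 0.83 and 2.05, and the GV points lie between 2.25 and 3.31, above the black line.

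Ratios within a library set the members against each other. Nlrp9b had 0.314 and 0.312 times the TPM of Nlrp9a in MII, against 1.57 and 1.61 times in GV. Nlrp14 had 0.188 and 0.464 times the TPM of Nlrp4f in MII and 5.02 and 4.82 times in GV. Nlrp4a had 1.13 and 1.25 times the TPM of Nlrp4f in MII and 0.85 and 0.744 times in GV. In each of these 3 ratios the MII and GV libraries did not overlap. More ratios were taken. Those of Nlrp4c to Nlrp4f (0.0144 and 0.0282 in MII, 0.0227 and 0.0243 in GV) overlapped. So did Nlrp9c to Nlrp4f (0.743 and 1.09 in MII, 0.587 and 0.756 in GV), and the rest did not. How often other pairs of genes separate in this way was not tested. A ratio within a library shows unequal change and does not show which of its genes changed.

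The MII against GV comparison asks how the stored mRNA pool differs after the meiotic divisions resume. Nlrp14 and Nlrp9b were lower in MII oocytes and Nlrp4a was higher, relative to other mRNA on the scale used here. Log2 fold changes are from the edgeR quasi-likelihood test on TMM-scaled counts. TMM sets level a trimmed mean of gene ratios between libraries, and its factors were 0.422 and 0.405 in MII and 1.07 and 1.15 in GV. P-values were adjusted over 25045 genes by Benjamini-Hochberg, with a threshold of 0.05. The SE is approximate, the size of the fold change over the square root of its F statistic. Of the 9 members, 1 was higher, 2 were lower and 6 did not pass. Of all genes tested, 39.6% passed, with 17.4% higher in MII and 22.2% lower, so this share among the members is near that of all genes. The middle log2 fold change (median) was 0.66 over the members and −0.53 over all genes tested, so the median gene was not level on this scale.

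Nlrp14 fell by 3.05 on the log2 scale (± 0.67 SE, adjusted p = 0.00567), and all 19 alternatives kept it lower. Nlrp9b fell by 1.94 (± 0.67 SE, adjusted p = 0.0449). Nlrp4a rose by 1.59 (± 0.55 SE, adjusted p = 0.0472). Its TPM ranges in MII and GV overlapped. In the other 6 genes the estimates were 1.39 ± 0.58 for Nlrp4b (adjusted p = 0.0971), 1.19 ± 0.54 for Nlrp9c (0.111), 1.08 ± 0.69 for Nlrp4f (0.248), 0.66 ± 0.46 for Nlrp4c (0.288), 0.38 ± 0.57 for Nlrp9a (0.631) and −0.15 ± 0.43 for Nlrp4e (0.826). On simulated counts this test recovered 25% of genes changed by 1 on the log2 scale, so not passing does not show that a gene was unchanged. Bulk libraries give each mRNA relative to the rest, so fewer contributing cells and less RNA per cell cannot be told apart. Relative to TMM, the TPM scale moved the median gene by −0.61 (log2) with a pseudocount of 1 and by −1.02 with 0.1, and relative log expression moved it by 0.21. On the log2(TPM + 1) scale tested with limma, Nlrp14 (−4.03, adjusted p = 0.000831), Nlrp9b (−2.94, 0.0137) and Nlrp4e (−1.21, 0.0416) were lower and no member was higher. The members thus moved further down than the median gene. On that scale the other 6 had 0.60 (Nlrp4a), 0.45 (Nlrp9c), 0.43 (Nlrp4b), 0.02 (Nlrp4f), −0.20 (Nlrp4c) and −0.62 (Nlrp9a). With that scale 22.8% of the called genes were higher in MII, against 43.9% with TMM.

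**Figure D3:**
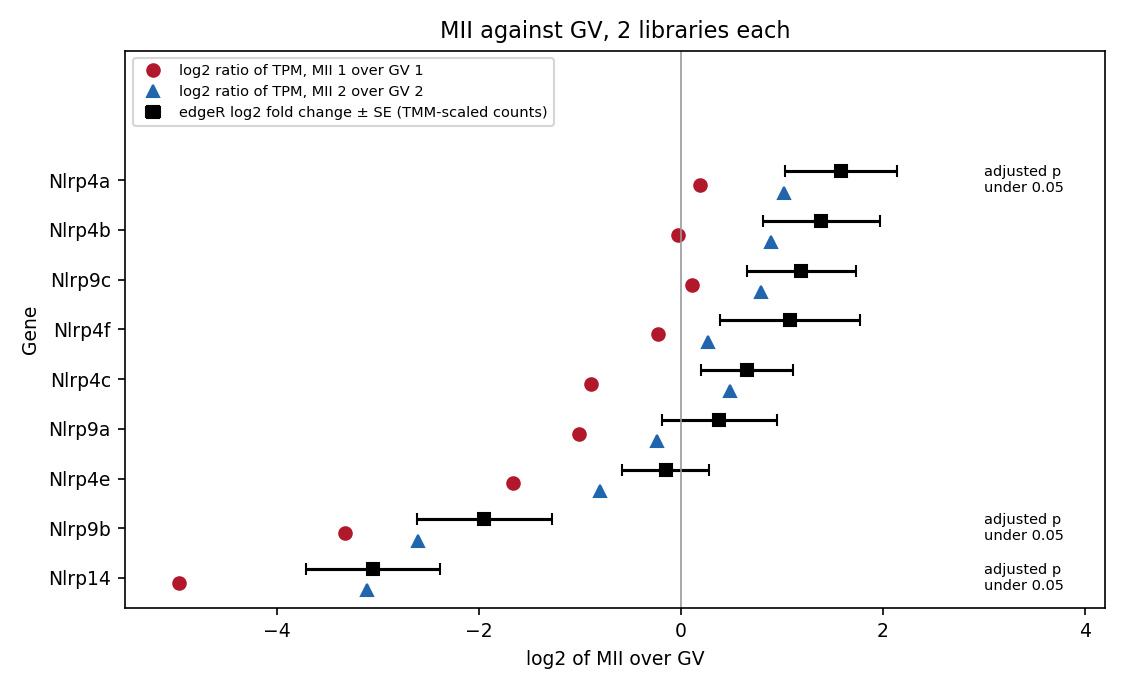
Log2 of MII over GV for each gene: black squares show the edgeR log2 fold change with its SE (2 libraries a group), red circles the TPM ratio of the replicate 1 libraries and blue triangles that of the replicate 2 libraries. Nlrp14 and Nlrp9b lie left of 0 by all measures, and the fold changes of Nlrp4b, Nlrp9c, Nlrp4f, Nlrp4c, Nlrp9a and Nlrp4e did not pass the test.

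Libraries of the same number shared their depth class, so the TPM ratio of MII to GV was also taken within each number. Nlrp14 had log2 ratios of −4.97 in replicate 1 and −3.11 in replicate 2, and Nlrp9b had −3.32 and −2.61. Nlrp4e (−1.66 and −0.80) and Nlrp9a (−1.01 and −0.24) were also lower in both. Nlrp4a (0.19 and 1.02) and Nlrp9c (0.11 and 0.80) were higher in both, and the remaining 3 genes differed in sign. In coding transcripts alone Nlrp9c was not higher, at 151 and 107.8 TPM in MII against 263 and 108.5 TPM in GV. Both MII libraries lay below both GV libraries for 3 of 9 members, Nlrp14, Nlrp9b and Nlrp4e, as for 56.2% of all genes tested, and both lay above for 0 of 9, against 17.3% of all genes.

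Each of the 3 calls was lost without at least 1 library. Without MII replicate 1, Nlrp14 had an adjusted p of 0.0507 (log2 fold change −2.99). Nlrp9b missed the threshold without GV replicate 1 (−1.20, adjusted p = 0.239), without MII replicate 1 (−2.41, 0.0968), without MII replicate 2 (−1.75, 0.196) and with relative log expression (−1.68, 0.0862). Nlrp4a missed it without GV replicate 2 (1.0, 0.195), MII replicate 1 (1.06, 0.279), MII replicate 2 (1.82, 0.0749), ESC replicate 1 (1.57, 0.0542) or ESC replicate 2 (1.58, 0.0536), and on the TPM scale (0.60, 0.52 with a pseudocount of 1 and 0.478 with 0.1). A correction for GC content was an alternative chosen after seeing the data. It also removes any difference between MII and GV that follows GC content. With it Nlrp14 (−3.82, adjusted p = 0.000696), Nlrp9b (−2.82, 0.00325) and Nlrp4e (−0.92, 0.0454) were lower, and Nlrp4a did not pass (0.82, 0.155). The other 5 genes lay between −0.59 and 0.38 with adjusted p-values of 0.274 or more.

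**Figure D4:**
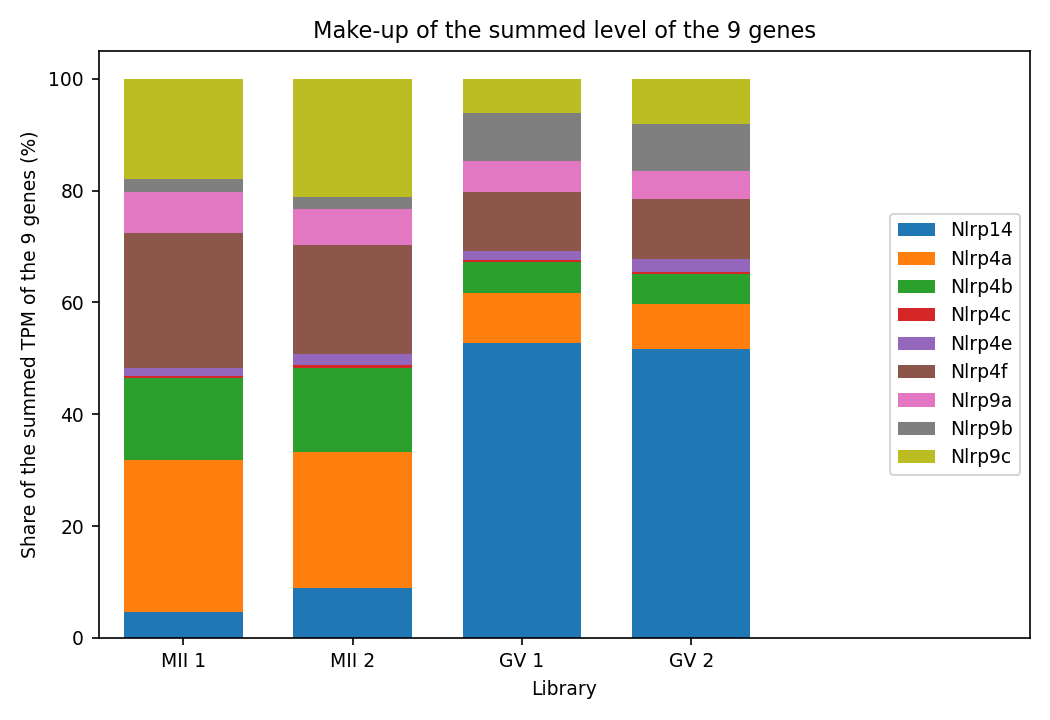
Share of each gene in the summed TPM of the 9 genes, stacked to 100% in the MII and GV libraries. Nlrp14 takes 4.53% and 9.0% in MII against 52.8% and 51.7% in GV, while Nlrp4a takes 27.3% and 24.3% in MII against 8.93% and 7.99% in GV.

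The make-up of the summed level differed between MII and GV in the same direction in both replicates for the genes named here. The sum was 2926 and 1775 TPM in MII and 7873 and 2661 TPM in GV. Nlrp9c took 17.9% and 21.2% of it in MII and 6.16% and 8.12% in GV, and Nlrp9b 2.31% and 2.05% in MII and 8.59% and 8.31% in GV. The Nlrp9c share includes its noncoding transcripts. Nlrp4f took 24.1% and 19.4% in MII and 10.5% and 10.7% in GV. Shares of one sum depend on each other, so a lower share of 1 gene goes with higher shares of others.

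Of the 33 transcripts listed for the 9 genes, 31 in 8 genes entered a test of usage, the share of a gene's RNA in each transcript (edgeR diffSpliceDGE). Of these 31, 0 passed after adjustment over 56755 transcripts, 2 had an unadjusted p under 0.05 (Nlrp9a-003 and Nlrp4b-003), and the gene-level F test called 0 of the 8 genes. Of all transcripts tested, 1.77% passed. On simulated counts this test missed a large share of the changed genes and made false calls, so the absence of calls does not show that usage was alike. Nlrp14-001 made up 99.7% to 99.9% of Nlrp14 TPM in each oocyte library. Nlrp9c was split: the noncoding Nlrp9c-005 (1228 bases) measured 339.6 and 262 TPM in MII and 206 and 105 TPM in GV, and the coding Nlrp9c-001 measured 147 and 106 TPM in MII and 259.6 and 107 TPM in GV. The noncoding form thus made up 64.7% and 69.7% of Nlrp9c in MII and 42.4% and 48.4% in GV, without overlap. Its usage did not pass the test (log2 fold change 0.65, edgeR adjusted p = 1). Counting coding transcripts alone, Nlrp9c averaged 129.5 TPM in MII rather than 450.2 TPM.

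The forms of Nlrp9b overlapped between the stages, with Nlrp9b-001 at 72.6% and 84.5% in MII and 75.3% and 82.2% in GV, and Nlrp9b-003 at 26.9% and 15.3% in MII and 24.5% and 17.6% in GV. Nlrp4b-003 made up 10.5% and 10.7% of Nlrp4b in MII and 2.43% and 2.54% in GV, without overlap, with an adjusted p of 0.407 in the usage test. In both stages the share of Nlrp4a-004 was higher in replicate 1. Nlrp4a-004, a noncoding form, made up 19.7% of Nlrp4a in MII replicate 1 and 3.01% in MII replicate 2, against 15.8% in GV replicate 1 and 5.58% in GV replicate 2.

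**Figure D5:**
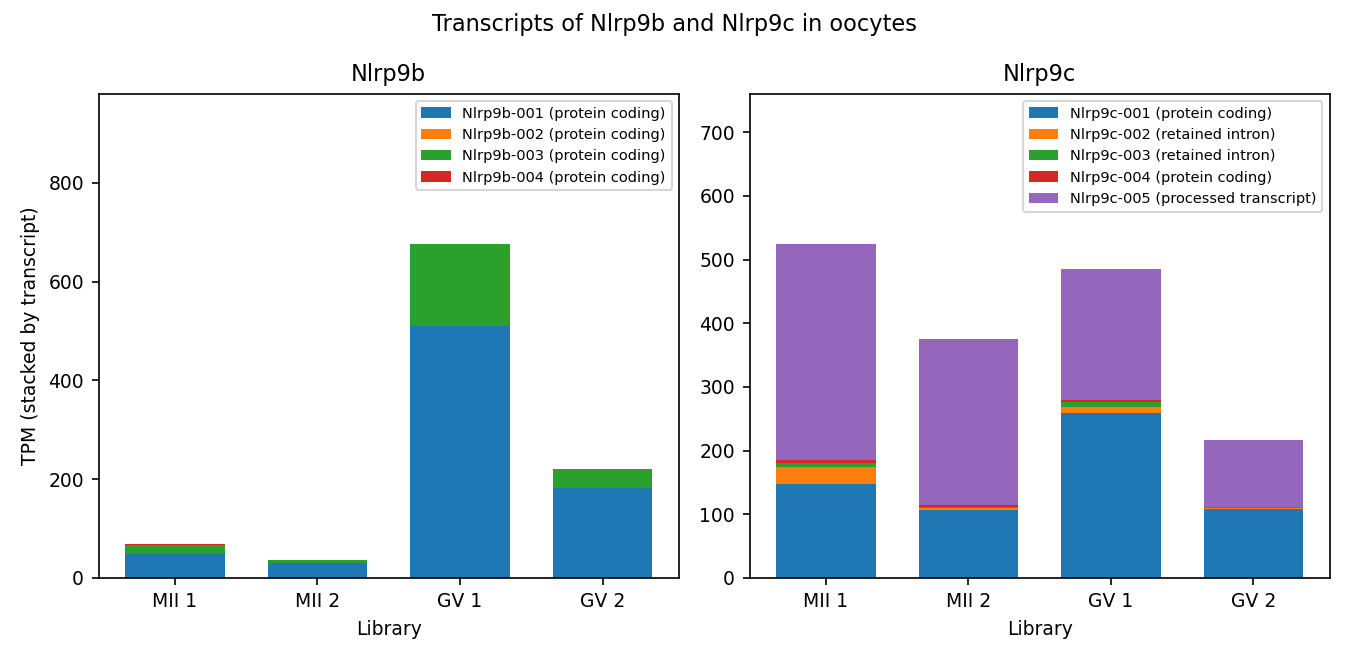
TPM of the transcripts of Nlrp9b and Nlrp9c, stacked, in the MII and GV libraries. Nlrp9b-001 makes up 72.6% to 84.5% of Nlrp9b in each library, and the noncoding Nlrp9c-005 makes up 64.7% and 69.7% of Nlrp9c in MII against 42.4% and 48.4% in GV.

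In pluripotent cells the 9 genes were low or at 0, by their choice. Summed TPM was 11.7 and 2.77 in EpiC and 39.7 and 18.7 in ESC. Nlrp4b and Nlrp9a had 0 counts in all 4 of these libraries. Against a floor of 3 counts per library, mean TPM in GV was at least 15017 times higher than in ESC for Nlrp4b and at least 15180 times for Nlrp9a, a bound that covers counting error only. Where ESC had counts, mean TPM in GV was 29674 times that in ESC for Nlrp14, 383 times for Nlrp9b, 295 times for Nlrp4a and 21.6 times for Nlrp4f. Nlrp4f was thus the member with the highest level in pluripotent cells, at 5.51 and 1.28 TPM in EpiC and 35.7 and 15.9 TPM in ESC.

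The EpiC against ESC comparison asks what changed as cells left the naive state. Nlrp4a and Nlrp9c, neighbours on chromosome 7, were lower in EpiC. Nlrp4a measured 0.0294 and 0.0084 TPM in EpiC and 1.78 and 1.32 TPM in ESC, which is 4.06 and 3.18 estimated counts in EpiC and 219 and 566 in ESC. Its log2 fold change was −6.35 ± 0.79 (SE, adjusted p = 0.00327). Nlrp9c measured 0.0239 and 0.0247 TPM in EpiC and 0.598 and 0.196 TPM in ESC, with a log2 fold change of −3.93 ± 0.77 (adjusted p = 0.0207). Its estimated counts were 2.00 and 5.00 in EpiC and 54.0 and 58.3 in ESC. Nlrp9a, the third neighbour, was at 0 in both groups. Of 9 members, 2 passed the test, both lower, against 5.46% of all genes tested (2.63% higher and 2.83% lower). The count filter took all 8 libraries, so members could enter this test through their oocyte counts. Nlrp4b and Nlrp9a, at 0 counts in both groups, could not be called. Low pluripotent levels were also known at the choice, so nothing is read from that share.

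Nlrp4f showed −2.98 ± 0.74 with an adjusted p of 0.0513, and 9 of 19 alternatives put it under the threshold. Nlrp4c (0.507 and 0.299 TPM in EpiC, 0.116 and 0.132 TPM in ESC) had 1.96 ± 0.51 with an adjusted p of 0.0605, and 8 of 19 alternatives called it higher in EpiC. Nlrp14 (0.578 and 0.160 TPM in EpiC, 0.108 and 0.0788 TPM in ESC) had 2.07 ± 0.74 (0.163; called higher by 3 of 19 alternatives), Nlrp9b (5.01 and 0.991 TPM in EpiC, 1.35 and 0.990 TPM in ESC) had 1.66 ± 0.71 (0.256; called higher by 1), and Nlrp4e had −1.79 ± 0.85 (0.326). Nlrp9b, Nlrp4a and Nlrp9c in these cells were not the oocyte mix of forms. The short Nlrp9b-004 (454 bases) held 3.65 and 0.777 TPM in EpiC and 1.22 and 0.840 TPM in ESC, against 0.947 and 0.168 TPM in EpiC and 0.133 and 0.150 TPM in ESC for Nlrp9b-001. Nlrp4a-003 held 0 TPM in both EpiC libraries and 1.38 and 0.860 TPM in ESC. Nlrp9c-004, which made up 0.481% to 0.814% of Nlrp9c in the oocyte libraries, held 0.374 and 0.142 TPM in ESC. In ESC Nlrp9c-001 held 0.172 and 0.0229 TPM. The call for Nlrp4a was lost on the log2(TPM + 1) scale (−1.32, adjusted p = 0.244). That for Nlrp9c was lost without ESC replicate 1 (−2.99, 0.0731), without EpiC replicate 1 (−3.89, 0.0627), without EpiC replicate 2 (−4.06, 0.0948), with the compared groups alone (−4.05, 0.113) and on the TPM scale (−0.43, 0.73 with a pseudocount of 1 and −1.87, 0.0788 with 0.1).

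A list of 12 other mouse Nlrp genes, most of them low in oocytes, sets the 9 beside their relatives. Of the 12, 8 were tested in MII against GV, 2 were lower, against 22.2% of all genes tested, and 6 did not pass. Nlrp5, a core subunit of the subcortical maternal complex, measured 99.4 and 121 TPM in MII and 1502 and 719 TPM in GV (log2 fold change −2.27 ± 0.66, adjusted p = 0.022). Nlrp14 kept a similar ratio to it in the MII libraries, 1.33 and 1.32, against 2.77 and 1.91 in GV. Nlrp2 measured 30.1 and 22.3 TPM in MII and 243 and 118 TPM in GV (−1.57 ± 0.59, adjusted p = 0.0596), and Nlrp4g 42.9 and 26.6 TPM in MII and 249 and 95.1 TPM in GV (−1.14 ± 0.47, 0.0845). Nlrp2 was called lower under 11 of 19 alternatives and Nlrp4g under 6. Nlrp5 missed the threshold without GV replicate 1 (adjusted p = 0.0791), MII replicate 1 (0.115) or MII replicate 2 (0.0732). The pseudogene Nlrp5-ps, listed at 0 and 0.0427 TPM in MII and 0.859 and 0.482 TPM in GV, was the second gene called lower (adjusted p = 0.0477), a call lost without GV replicate 1 (0.117), GV replicate 2 (0.0898) or MII replicate 1 (0.149) and on the log2(TPM + 1) scale (0.326). Nlrp3, the inflammasome sensor, stayed under 1 TPM in all 8 libraries, and Nlrp1a, Nlrp1b and Nlrp4d stayed under 0.01 TPM.

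Of 7 genes of the subcortical maternal complex, 5 were lower in MII, 1 was higher and 1 (Nlrp2) did not pass, where 22.2% of all genes tested were lower and 17.4% higher. Ooep (27.6 and 56.4 TPM in MII, 1408 and 1510 TPM in GV; log2 fold change −3.94), Padi6 (−3.70) and Khdc3 (−3.16) were lower with Nlrp5 and Tle6, and Zbed3 was higher (3.19, adjusted p = 0.000569). The list's median log2 fold change was −2.71, against −0.53 over all genes tested, and Zbed3, Ooep, Padi6, Khdc3 and Tle6 passed under all 19 alternatives. Padi6 measured 90.9 and 200.2 TPM in MII and 4057 and 4518 TPM in GV.

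Reported partners of NLRP14 and NLRP4 gave 2 genes higher, 1 lower and 2 that did not pass, of 5. Among all genes tested, 17.4% were higher and 22.2% lower. Becn1, an autophagy factor bound by human NLRP4, measured 267 and 308 TPM in MII and 94.5 and 103 TPM in GV (log2 fold change 2.71, adjusted p = 0.000545). Tbk1, the kinase restrained through human NLRP4, measured 14.6 and 16.9 TPM in MII and 11.4 and 7.39 TPM in GV (1.92, 0.0023). Dtx4, the ubiquitin ligase of that route, was under 0.4 TPM in each oocyte library and was lower in MII (−1.85, 0.0275). Uhrf1 measured 237 and 437 TPM in MII and 374 and 515 TPM in GV (0.73, 0.224), and with the GC correction it was higher in MII (1.42, 0.015), while Slc8b1 lay between 0.0643 and 0.259 TPM in all 4 oocyte libraries (1.41, 0.155; 2.39, 0.0061 with the GC correction). Dppa3, which holds Uhrf1 protein out of the nucleus in oocytes, measured 3204 and 2165.8 TPM in MII and 2435 and 2289 TPM in GV, which overlap, and passed (1.33, 0.0174). Dnmt1, the maintenance DNA methyltransferase that Uhrf1 recruits, did not pass (−1.49, 0.0597), but 8 of 19 alternatives called it lower. Becn1 passed under all 19 alternatives and Tbk1 under 17, the exceptions being the TPM scales (0.71, 0.105 with a pseudocount of 1 and 0.77, 0.113 with 0.1). Dtx4 missed the threshold without GV replicate 1 (adjusted p = 0.101), MII replicate 1 (0.0968) or MII replicate 2 (0.0832) and on the log2(TPM + 1) scale (0.433). Dppa3 missed it without GV replicate 1 (0.0817), GV replicate 2 (0.063) or MII replicate 1 (0.149), on the TPM scales (0.16, adjusted p = 0.886 and 0.818) and with the GC correction (0.77, 0.123).

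Many sensors and effectors of inflammasomes were low in oocytes. Of 11 other NLR genes tested, 1 was higher in MII (Nlrc3, log2 fold change 1.74), 2 were lower (Nlrc4, −3.31, and Naip1, −3.01, which act together in sensing bacteria) and 8 did not pass, with a median of −1.48. Naip1 measured 0.640 and 0.627 TPM in MII and 15.3 and 7.81 TPM in GV, and Nlrc4 0.407 and 0.515 TPM in MII and 11.7 and 9.0 TPM in GV. Of 11 tested genes of inflammasome assembly and pyroptosis, 1 was higher (Nek7, 1.54), 5 were lower and 5 did not pass, with a median of −1.51. Beside both lists, 17.4% of all genes tested were higher and 22.2% lower, with a median log2 fold change of −0.53. Pycard, the adaptor between sensors and caspase-1, was listed at 0 TPM in both MII libraries and at 0.0107 and 0.416 TPM in GV, and Casp4 at 0 TPM in MII and 0.225 and 0.172 TPM in GV. Il18 measured 0 and 0.0156 TPM in MII and 1.46 and 1.05 TPM in GV. These 3 genes passed the test from levels of 1.46 TPM or less, so no fold is given. Casp8, a caspase of cell death, was the called gene with the highest level among the 5 lower ones, at 4.30 and 4.53 TPM in MII and 33.4 and 27.4 TPM in GV (−1.60, adjusted p = 0.0211). Its call was lost without any 1 of the oocyte libraries (adjusted p = 0.0527 to 0.0767). Txnip, which can bind NLRP3, was abundant, at 511 and 874 TPM in MII and 700.4 and 729 TPM in GV, and did not pass (1.12, 0.169). Their calls were lost without either MII library (adjusted p = 0.0714 and 0.162 for Pycard, 0.101 and 0.186 for Casp4, 0.103 and 0.0892 for Il18), without GV replicate 2 (0.17 for Pycard, 0.0569 for Casp4, 0.0701 for Il18), and for Casp4 (0.122) and Il18 (0.069) without GV replicate 1. On the TPM scales Pycard (0.797 and 0.247) and Casp4 (0.455 and 0.0604) did not pass, and Pycard also missed with a length offset (0.0806). Casp4 also missed narrowly without ESC replicate 1 (0.051) or ESC replicate 2 (0.0513). Nlrc3 and Nek7 missed the threshold without GV replicate 2 (0.061 for Nlrc3, 0.0695 for Nek7) or MII replicate 1 (0.0576 for Nlrc3, 0.073 for Nek7) and on the TPM scales (0.44, 0.213 and 0.58, 0.258 for Nlrc3; 0.34, 0.555 and 0.39, 0.519 for Nek7). With the GC correction Nek7 had 0.34 (0.355), while Nlrc4 and Naip1 passed under all 19 alternatives. Dhx9, the helicase that works with Nlrp9b, measured 11.0 and 7.91 TPM in MII and 12.5 and 6.06 TPM in GV and did not pass (1.17, adjusted p = 0.124), with calls higher under 2 of 19 alternatives.

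Genes nearest in pattern were found by the Euclidean distance of log2(TPM + 1) over the 8 libraries, among 21989 genes with a coding transcript, leaving out the members. For Nlrp14 these were Fbxw15 (distance 1.40; 155 and 117 TPM in MII, 1962 and 1179 TPM in GV), the zona pellucida gene Zp2 (1.64; 56.8 and 116 TPM in MII, 3464 and 2262 TPM in GV) and Gm13084 (1.71; 263 and 248 TPM in MII, 2070 and 1146 TPM in GV). Fbxw22 was nearest to both Nlrp4a (2.17) and Nlrp9c (1.02), and Khdc1a to Nlrp4b (1.03). Maob stood nearest to Nlrp4c (0.753), Bnc1 to Nlrp4e (0.698) and Gm6205 to Nlrp9a (0.777). Cpne9 was nearest to Nlrp9b (2.26). Nlrp4f, the member with the most RNA in stem cells, was nearest to Lmo7 (1.82), which measured 407 and 308 TPM in MII, 441 and 167 TPM in GV, 8.56 and 3.07 TPM in EpiC, and 37.3 and 22.9 TPM in ESC. With a pseudocount of 0.1, 4 of the 9 nearest genes were the same.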

How the data were processed

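RNA of 8 mouse libraries was sequenced with a stranded paired-end kit after TRIzol extraction, per the labels' protocols, which do not say whether poly(A) RNA was selected. For each transcript, the deposited tables give estimated counts, made by the authors with kallisto 0.43 on mm10 per the submitters' processing notes, and TPM from the same deposited tables. The gene release was not stated. Both values were summed per gene, and counts were rounded. The filterByExpr filter of edgeR 4.0.16 (R 4.3.3) left 25045 genes, which were scaled by TMM and fitted with a robust quasi-likelihood model of 1 mean per group over all 8 libraries (4 residual degrees of freedom). Transcript usage was tested with diffSpliceDGE. Limma 3.58.1 on log2(TPM + 1) or log2(TPM + 0.1) and DESeq2 1.42.0 were alternatives, with other scalings, filters, a replicate block and each library left out. The GC correction fitted a curve of level on GC content in each library. Its departure from the mean curve of the 8 libraries entered as an offset, so differences between groups that follow GC content are removed with it.

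The members and lists were chosen with earlier results of these data known. Named were the members, their nearest genes (3 for Nlrp14), up to 3 called genes per direction of each list, and Nlrp genes; genes named outside this rule (Inha, Foxl2, Fgf5, Tle6, Uhrf1, Slc8b1, Dhx9, Casp8, Txnip, Gm16443 and other granulosa markers) were chosen after their values were seen. Sequences came from GENCODE M21 and RefSeq; all 33 member transcripts matched. Coding sequence identity replaced protein identity, which was planned. Floors cover counting error only, while each SE rests on the spread between the libraries, which may be technical. The tests were also checked on simulated counts, whose spread was set rather than taken from these libraries. There the gene test recovered 25% of 88 genes changed by 1 on the log2 scale and 95.5% of 112 changed by 2, with 10 false calls. The usage test missed a large share of the genes whose transcripts had been swapped and also called genes that had not been changed. A usage result that did not pass, or a call, is thus weak evidence.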

Additional observations from a re-analysis of the deposited data

How the results depend on the processing

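Of 171 fold changes of the 9 members in MII against GV under 19 alternatives each, 134 kept their direction and side of the threshold, 13 lost the call, 10 gained one and 14 turned direction. For EpiC against ESC, 104 of 132 kept both, 7 lost the call and 21 gained one. For the other named genes, 398 of 491 kept both, 53 lost the call, 33 gained one and 7 turned. All 14 turns among members were in genes that did not pass. Nlrp4c turned to −0.20 on both TPM scales and to −0.020 with the GC correction. Nlrp4e turned to 0.10 with relative log expression and with DESeq2 and to 0.37 without GV replicate 1, the upper end of a range that began at −0.60 without GV replicate 2. Nlrp9a turned to −0.62 on both TPM scales, −0.20 without GV replicate 2, −0.19 without MII replicate 1 (1.25 without GV replicate 1 at the other end), −0.59 with the GC correction and −0.57 with that correction and the block. Nlrp9c turned to −0.0026 and −5.6e-05 in those last fits, and Uhrf1 to −0.45 on both TPM scales, while with the GC correction Uhrf1 was called higher (1.42, adjusted p = 0.015). Txnip turned to −0.096 on both TPM scales, and Slc8b1 to −0.016 (pseudocount of 1), −0.096 (0.1) and −0.10 without MII replicate 2 (2.49 without GV replicate 2 at the other end). The cause was not tested.

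Members higher in MII numbered 2 with DESeq2, with no count filter and with a length offset, and 0 on both TPM scales and with the GC correction. Members lower numbered 1 with relative log expression. Leaving out 1 library gave 0 to 2 higher and 0 to 2 lower members, 3239 to 4552 higher and 3769 to 5728 lower genes, 1 to 4 members called in EpiC against ESC, and 0 transcripts with changed usage. Over all genes, the TPM scales gave 2408 (pseudocount of 1) and 2275 (0.1) higher, and 9107 (0.1) lower genes, against 4357 and 5572 with TMM. In EpiC against ESC, members called numbered 5 with DESeq2, 6 with no count filter, 4 with protein-coding genes only, 1 with the compared groups only, 0 and 1 on the TPM scales with pseudocounts of 1 and 0.1, and 4 with the GC correction. Where a library was left out, the lone library of its group was assumed to vary like the other groups.

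Replicate numbers were shared by all groups. The deviations of same-numbered libraries correlated at 0.31 between MII and GV and at 0.712 between EpiC and ESC, but with 2 pairs and no label that ties the numbers to an animal or a day they were not taken as pairs. With the number as a block, 4 members were higher in MII (Nlrp4a, Nlrp4b, Nlrp4f and Nlrp9c) and 2 were lower, against 19.4% and 24.9% of all genes, and 4 were called in EpiC against ESC, against 8.05%. With the block and the GC correction 1 member was higher (Nlrp4a, adjusted p = 0.0313) and 3 were lower, against 19.9% and 24.8%, and 5 were called in EpiC against ESC, against 9.28%. Nlrp4b (0.41, 0.274), Nlrp4f (0.20, 0.603) and Nlrp9c then did not pass. The GC correction was added after seeing the data. Depth limits the pluripotent values most, where several members had under 10 counts a library. Nlrp4b and Nlrp9a, at 0 counts in these cells, could not be called in EpiC against ESC.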
